A study of Acipenser schrenckii with 6 samples.

Results

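Of the 82023 features in the deposited gut expression table of Amur sturgeon (Acipenser schrenckii), 122 encode subunits of the V-type proton ATPase or carry product names of the autophagy machinery. The rule reads the product name: 53 products contain "V-type proton ATPase", and 69 contain autophagy, sequestosome, beclin, ULK kinase, WD repeat domain phosphoinositide-interacting, or one of the names of the GABARAP and LC3 protein families. Sturgeon loci often come in several copies per protein, so these 122 features fall on far fewer kinds of subunit, and how reads that match several near-identical copies were assigned is unknown, which makes the value of a single locus uncertain.

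The fish were hatchery-bred, kept in net cages and sampled before release to a river, and the study asked whether a live diet before release changes gut gene expression. The Limnodrilus group (3 libraries) received fresh Limnodrilus, a freshwater oligochaete worm reared in the water source of the fish so that it carried environmental microbes, for 30 days. The commercial feed group (3 libraries) received manufactured feed for the same 30 days. Fish of both groups had a similar genetic background, and no agent or allele other than the diet is named in the labels. Whether each library holds RNA of 1 fish or of pooled fish is not labelled, and the p-values therefore reflect only sample-to-sample spread, some of which may be technical. The labels give no age or sex of the fish and no stretch of gut.

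The V-type proton ATPase is a rotary pump that uses ATP to drive protons into lysosomes, endosomes and secretory vesicles, and in some epithelia across the cell surface. Its soluble V1 sector hydrolyses ATP and turns a shaft. Its membrane sector, Vo, carries the protons on a ring of proteolipids past subunit a. Autophagy encloses cytoplasm in a double membrane: ULK kinases start the process, a lipid kinase complex built on beclin-1 marks the site, ATG9 and ATG2 supply lipid, and a conjugation system attaches ATG8-family proteins to the membrane. Cargo receptors such as sequestosome-1 link what is enclosed to the ATG8 proteins, and the finished vesicle fuses with the lysosome, whose acid is made by the pump. In fish, as in other vertebrates, absorbing gut cells take up protein and lipid and hold many endosomes and lysosomes.

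Values are deposited FPKM, fragment counts scaled by feature length and library total, so levels of different features can be set side by side per length. Read totals recovered from the values were 13.9 to 19.7 M in the Limnodrilus libraries and 9.95 to 10.5 M in the commercial feed libraries, so the deeper libraries are all of 1 diet. The 122 features took 0.366% to 0.469% of the reads in the Limnodrilus libraries and 0.232% to 0.315% in the commercial feed libraries. Commercial feed library 1 stood apart, with 23.7% of its reads on mitochondrial features, against 2.06% to 6.42% elsewhere. Gut identity was read from 13 brush border features (villin, intestinal fatty acid-binding protein, retinol-binding protein 2, aminopeptidase N, alkaline phosphatase, sucrase-isomaltase), 12 of which averaged 1 FPKM or more and 0 of which were at 0 in every library. That mean spans both diets and can be reached through the Limnodrilus libraries alone, so it says less about the feed libraries. The 13 features summed to 1688 to 8733 FPKM with Limnodrilus and 53.9 to 1416 FPKM with commercial feed.

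Of the 122 features, 93 averaged 1 FPKM or more across the 6 libraries and were tested, and 29 were not. With Limnodrilus, 12 were higher and 0 were lower at an adjusted p under 0.05 (limma-trend on log2(FPKM + 1), Benjamini-Hochberg over all 23644 features tested). That is 12.9% of those tested, against 14.0% of all tested features called higher and 3.64% called lower. On the deposited scale with all 6 libraries, the share called higher was thus close to that of the gut transcriptome as a whole. At an unadjusted p under 0.05, 29 features lay higher and 1 lower, and limma-voom on recovered reads called 9 higher and 0 lower. In 35 of the 93 (37.6%) all 3 Limnodrilus libraries lay above all 3 commercial feed libraries, against 28.4% of all tested features. In 6 they all lay below, against 11.5% of all tested features. The median log2 fold change was 0.51 for the 93 and 0.24 for all tested features, a shift of the whole transcriptome on this scale against which the values that follow are to be read. Because a low feature can pass the filter through the diet in which it is high, these counts describe the tested features and not all 122.

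The number of calls depended on single libraries. It was 1 without Limnodrilus library 1, 0 without Limnodrilus library 2 and 0 without Limnodrilus library 3, with 20, 19 and 21 features at an unadjusted p under 0.05. It was 7 without commercial feed library 1, 3 without commercial feed library 2 and 18 without commercial feed library 3. With each library left out in turn, TMEM150B-like LOC117965677 passed in 4 of the 6 cases and each of the other 11 features in 1 or 2, with the direction kept throughout. Over all tested features the calls likewise ran between 638 and 6295 as single libraries were left out, against 4182 with all 6. Scaling mattered as well: median-of-ratios and quantile scaling, which brought the median of all tested features to 0.01 and 0.00, gave 3 and 6 calls among the pump and autophagy features, all higher. Over all tested features they gave 2235 and 2385 calls higher and 1492 and 1512 lower, against 3321 higher and 861 lower on the deposited scale. The shares called higher were then 3.23% and 6.45% of the 93, below the 9.45% and 10.1% of all tested features.

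**Figure D1:**
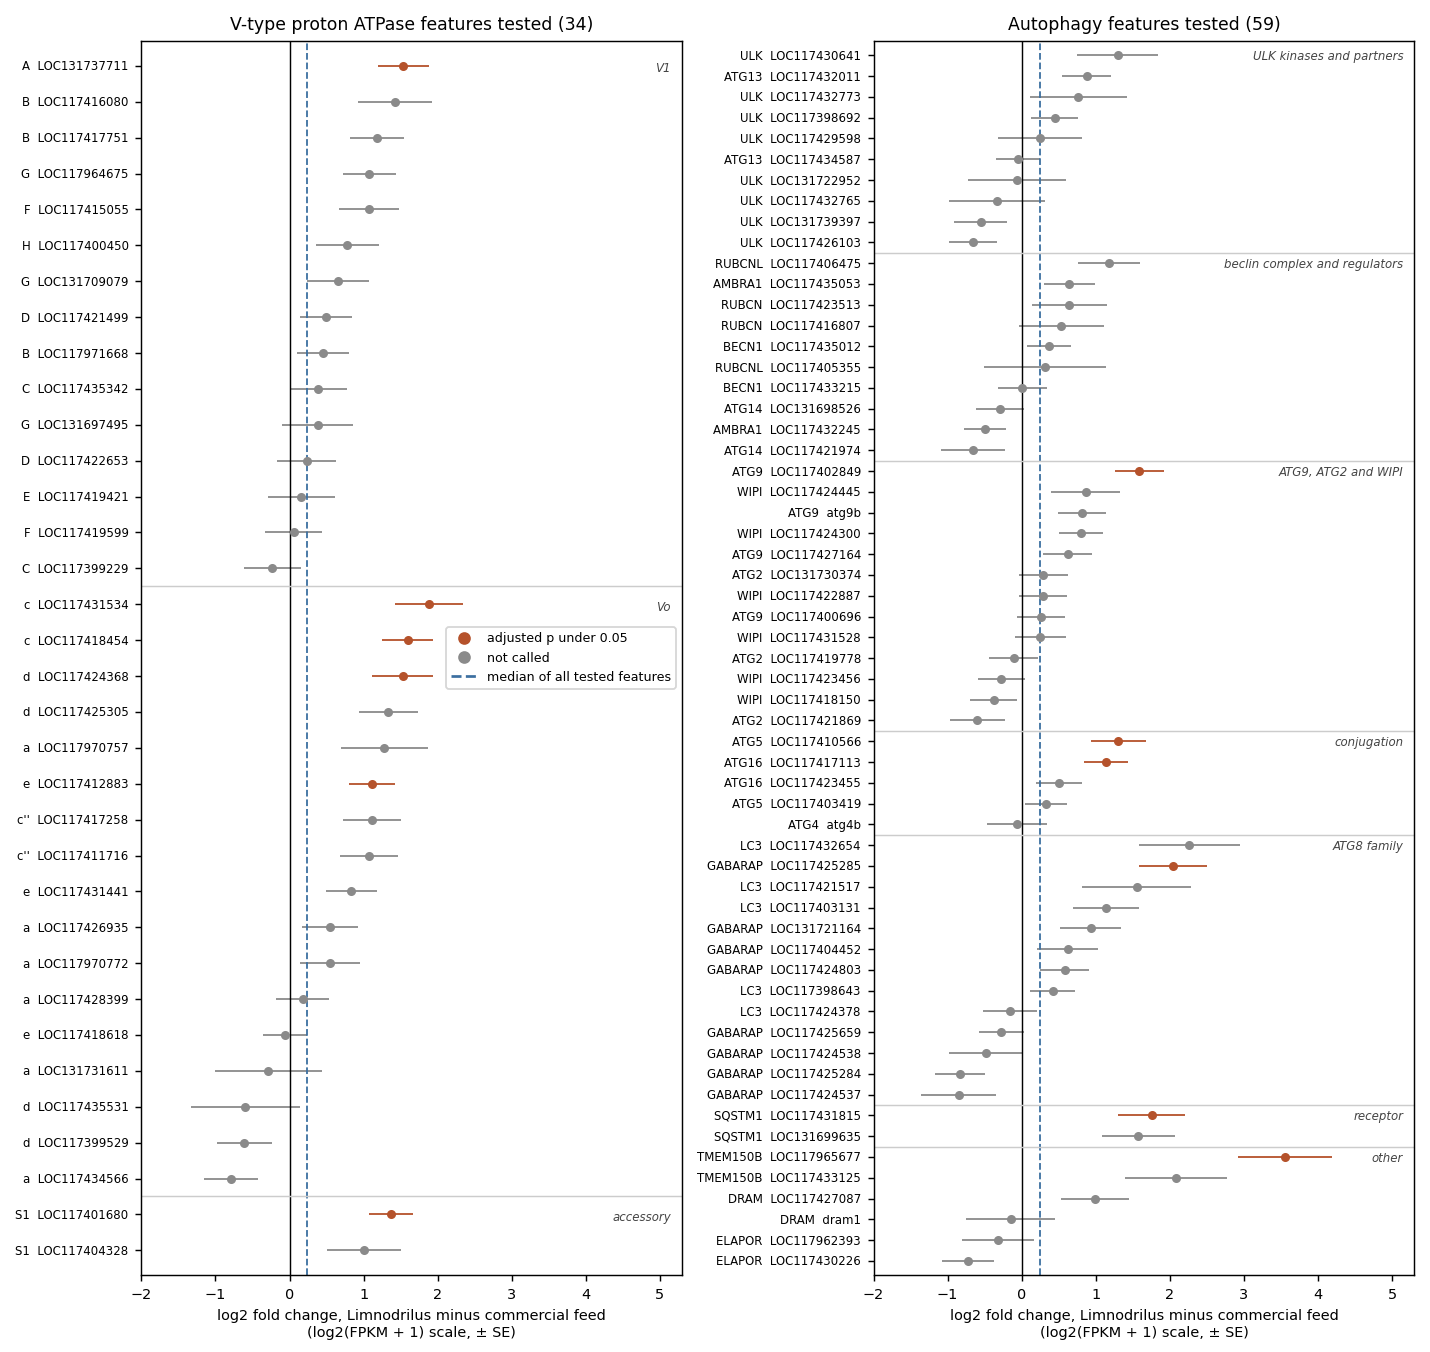
Log2 fold change, Limnodrilus minus commercial feed, with its standard error for each of the 34 tested V-type proton ATPase features (left) and the 59 tested autophagy features (right), grouped by role, on the log2(FPKM + 1) scale. Orange points passed an adjusted p of 0.05, 12 in all and each to the right of 0; the dashed line is the median of all tested features at 0.24.

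Among the proton pump subunits 34 of 53 features were tested. With Limnodrilus, 6 (17.6%) were higher, against 14.0% of all tested features, and 0 were lower, against 3.64%. On the deposited scale the share called higher was close to that background, with 14 and 0 at an unadjusted p under 0.05 and 5 and 0 by limma-voom. The median log2 fold change was 0.72, with 28 features above 0 and 6 below. By sector, 4 of 17 tested Vo features (23.5%), 1 of 15 tested V1 features (6.67%) and 1 of 2 tested accessory features (50%) were called higher. A difference between the sectors was not tested. Summed over all 53 features, the pump reached 1037, 918 and 834 FPKM in Limnodrilus libraries 1 to 3 and 380.4, 644 and 579.9 FPKM in commercial feed libraries 1 to 3. On the deposited scale every Limnodrilus library was above every commercial feed library, and commercial feed library 1 was the lowest of all 6. The median-of-ratios size factors were 1.258 for Limnodrilus library 3 and 0.9074 for commercial feed library 2. Divided by these factors, the summed pump values of the diets overlap. With median-of-ratios and quantile scaling, 2.94% and 8.82% of the 34 tested pump features were called higher, against 9.45% and 10.1% of all tested features.

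By the mean over the 6 libraries, the proteolipid ring held the most abundant pump transcripts. Subunit c, the proteolipid that carries the proton, had 2 loci and both were called. LOC117418454 (NC_081201.1, 9465535 to 9478256) had 135, 143 and 140.3 FPKM in Limnodrilus libraries 1 to 3, against 58.3, 48.6 and 33.2 FPKM in commercial feed libraries 1 to 3. The Limnodrilus values were close to each other and the groups did not overlap, with a log2 fold change of 1.60 ± 0.35 (SE, limma-trend adjusted p = 0.0227). LOC117431534 (NC_081210.1, 2956610 to 2963634) had 192, 127 and 115.1 FPKM with Limnodrilus, against 23.1, 64.6 and 35.0 FPKM with commercial feed. The groups again did not overlap, although Limnodrilus library 1 stood above Limnodrilus libraries 2 and 3 and commercial feed library 2 above its own group (log2 fold change 1.88 ± 0.46, limma-trend adjusted p = 0.0308). Together the pair reached 284 ± 37.8 FPKM with Limnodrilus and 87.6 ± 23.1 FPKM with commercial feed (SD, n = 3 libraries each), a ratio of 3.24. The sums per subunit were not tested.

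The ring's other proteolipid, c'', also had 2 loci, and neither was called. LOC117417258 had 39.4, 37.8 and 30.8 FPKM with Limnodrilus, against 9.65, 22.6 and 18.8 FPKM with commercial feed (log2 fold change 1.11 ± 0.39, limma-trend adjusted p = 0.0887). LOC117411716 had 31.0, 35.1 and 31.2 FPKM with Limnodrilus, against 8.81, 22.3 and 16.5 FPKM with commercial feed (1.07 ± 0.39, limma-trend adjusted p = 0.0979). In both loci the 3 Limnodrilus libraries lay above the 3 commercial feed libraries, and commercial feed library 1 was the lowest.

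Subunit d, which couples the ring to the central shaft, split by isoform. The d 1 locus LOC117424368 (NC_081207.1, 30794799 to 30802852) had 33.9, 33.2 and 29 FPKM with Limnodrilus, against 6.10, 17.9 and 10.2 FPKM with commercial feed. It was called higher without overlap between the groups (log2 fold change 1.53 ± 0.41, limma-trend adjusted p = 0.0429). The second d 1 locus, LOC117425305, had 10.7, 14.4 and 9.68 FPKM against 2.11, 6.54 and 4.17 FPKM in the commercial feed libraries, also without overlap, and missed the threshold (1.33 ± 0.40, limma-trend adjusted p = 0.0565). The d 2 loci, which encode the isoform that mammals express in fewer tissues, had log2 fold changes below 0 and were not called. LOC117435531 had 4.76, 3.66 and 1.20 FPKM with Limnodrilus, against 1.86, 18 and 2.75 FPKM with commercial feed, so its feed mean rested on library 2 (-0.60 ± 0.74, limma-trend adjusted p = 0.604). LOC117399529 had 0.456, 0.670 and 0.929 FPKM with Limnodrilus and 0.715, 1.64 and 2.66 FPKM with commercial feed, with overlapping groups.

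Subunit e, a small membrane protein of Vo, was called at 1 of 3 tested loci. The e 1-like LOC117412883 (NC_081211.1, 24359256 to 24365874) had 52.3, 48.4 and 44.3 FPKM with Limnodrilus, against 19.7, 19.3 and 26.9 FPKM with commercial feed. All 3 Limnodrilus values were above the feed values (log2 fold change 1.11 ± 0.32, limma-trend adjusted p = 0.0480). The other e 1-like locus, LOC117431441, had 46.1, 42.7 and 31.8 FPKM against 16.5, 27.6 and 22.8 FPKM in the commercial feed libraries, without overlap and without passing the test (0.83 ± 0.35, limma-trend adjusted p = 0.135). The e 2 locus LOC117418618 stayed low, at 2.27 to 3.74 FPKM with Limnodrilus and 2.79 to 3.54 FPKM with commercial feed.

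**Figure D2:**
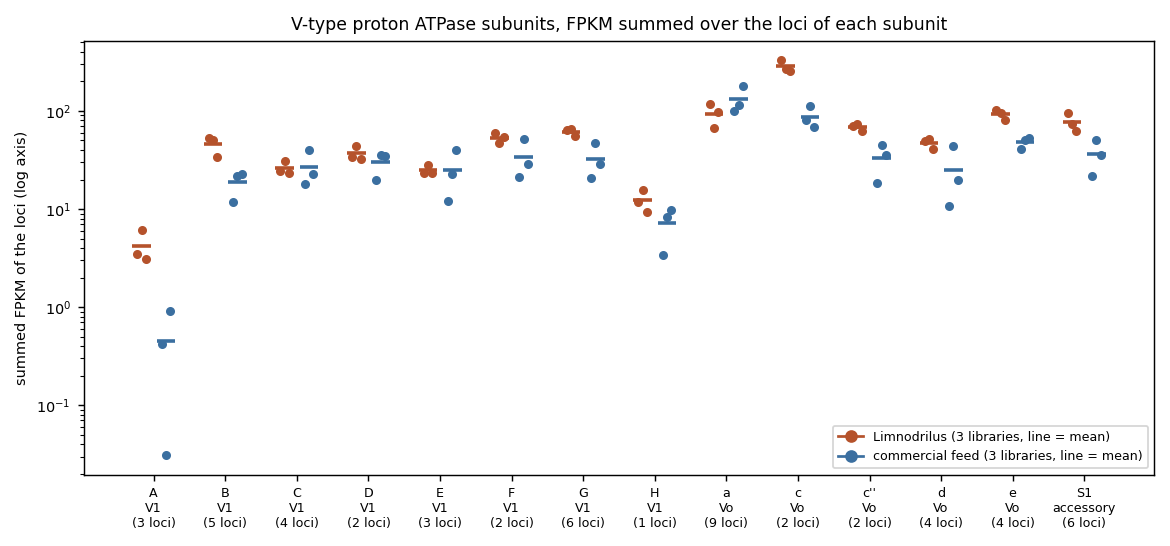
FPKM summed over the loci of each V-type proton ATPase subunit in each library (log axis), with the mean of the 3 libraries as a line; the number of loci is under each subunit. Subunit c averaged 284 FPKM with Limnodrilus and 87.6 FPKM with commercial feed, while subunit a averaged 94.1 and 131 FPKM in the same order.

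Subunit a, the large membrane protein that holds the proton path and whose isoforms are known in mammals to direct the pump to different membranes, was the exception among the abundant Vo subunits. Its 9 loci summed to 118, 66.7 and 97.4 FPKM with Limnodrilus, against 99.6, 114 and 179 FPKM with commercial feed. The groups overlapped, and the ratio of the means was 0.719. The most abundant locus, the a 1-like LOC117434566 (NC_081216.1, 868971 to 898334), had 49.5, 34.4 and 30.3 FPKM with Limnodrilus, against 75.7, 73.6 and 49.7 FPKM with commercial feed. It was the only one of the 34 tested pump features whose 3 Limnodrilus libraries were all below the 3 commercial feed libraries, and it was not called (log2 fold change -0.79 ± 0.36, limma-trend adjusted p = 0.166). The a 3-like LOC131731611, a feature of 1286 bases on an unplaced sequence, had 43.4, 14.8 and 41.6 FPKM with Limnodrilus, against 15.7, 29.9 and 104 FPKM with commercial feed, and its high feed mean rested on commercial feed library 3.

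As a share of the summed subunit a signal, isoform a 2 made up 18.8%, 24.0% and 24.1% in the Limnodrilus libraries, against 7.57%, 8.77% and 13% in the commercial feed libraries. These shares did not overlap between the diets, but the levels did: a 2 summed to 22.2, 16.05 and 23.5 FPKM with Limnodrilus, against 7.54, 9.98 and 23.3 FPKM with commercial feed. In commercial feed library 3 isoform a 3 stood at 106 FPKM. Isoform a 1 made up 42.0%, 51.7% and 31.2% with Limnodrilus, against 76.0%, 64.7% and 27.8% with commercial feed, and isoform a 3 made up 39.3%, 24.3% and 44.8% against 16.5%, 26.5% and 59.3% in the feed libraries. For a 1 and a 3 the groups overlapped, with commercial feed library 3 apart from commercial feed libraries 1 and 2. The a 4-like locus, whose isoform serves acid-secreting cells of the mammalian kidney, was at 0 in all 6 libraries. These shares leave out 1 further a 1 locus, atp6v0a1a, whose product is written without the words V-type proton ATPase. It had 16.3, 14.3 and 15.5 FPKM with Limnodrilus and 16.1, 7.13 and 29.1 FPKM with commercial feed.

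**Figure D3:**
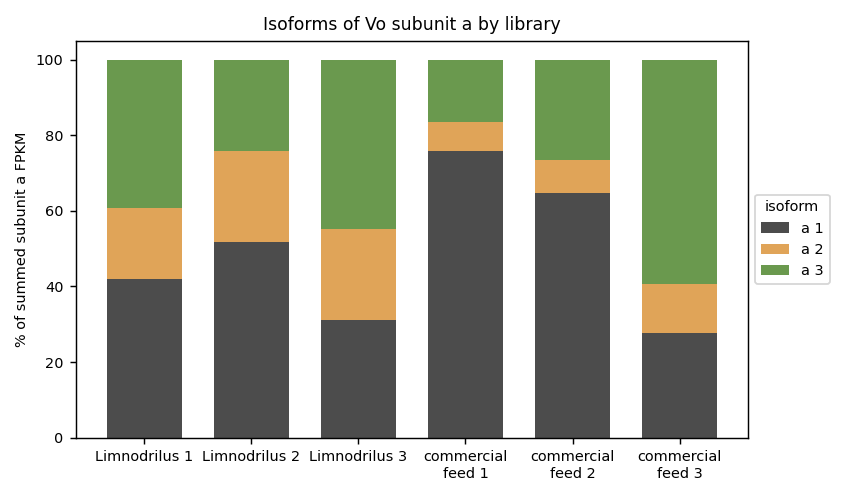
Share of the summed subunit a FPKM (percent, vertical axis) taken by each isoform in each of the 6 libraries. Isoform a 2 holds 18.8% to 24.1% in the Limnodrilus libraries and 7.57% to 13% in the commercial feed libraries; isoform a 1 leads in commercial feed libraries 1 and 2 and isoform a 3 in commercial feed library 3.

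In the V1 sector 14 of 15 tested features had log2 fold changes above 0, as did 14047 of all 23644 tested features. Of the 15, 1 was called higher (6.67%, against 14.0% of all tested features). The catalytic subunit A binds and splits ATP. Its called locus, LOC131737711 (NC_081196.1, 9015194 to 9033942), had 2.53, 4.11 and 2.30 FPKM with Limnodrilus, against 0.361, 0.0312 and 0.740 FPKM with commercial feed. The groups did not overlap, and the lowest feed value stood for 1 recovered read (log2 fold change 1.54 ± 0.35, limma-trend adjusted p = 0.0251). Without commercial feed library 3 its feed mean was 0.196 in place of 0.378 FPKM. The locus passed the filter of 1 FPKM through the Limnodrilus libraries, which averaged 2.98 FPKM. A second A locus, LOC117972994, was under the filter, at 0.954, 1.86 and 0.831 FPKM with Limnodrilus and 0.0596, 0 and 0.176 FPKM with commercial feed. Per length, the 3 subunit A loci together averaged 4.24 ± 1.60 FPKM with Limnodrilus and 0.456 ± 0.444 FPKM with commercial feed. Subunit B, which alternates with A in the same head of the pump, averaged 45.8 ± 10.5 FPKM with Limnodrilus and 18.7 ± 6.07 FPKM with commercial feed over its 5 loci. Among the loci matched by product name, subunit A was thus the lowest of the 8 V1 subunits in both diets. Any locus whose product is written without the words V-type proton ATPase is not in these sums.

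Subunit B has no catalytic site of its own, and its leading loci missed the threshold. LOC117417751 had 29.8, 27.5 and 21.3 FPKM with Limnodrilus, against 7.36, 11.7 and 14.8 FPKM with commercial feed (log2 fold change 1.18 ± 0.36, limma-trend adjusted p = 0.0596). LOC117416080 had 19.4, 21.5 and 9.45 FPKM with Limnodrilus, against 2.35, 8.22 and 6.99 FPKM with commercial feed (1.43 ± 0.50, limma-trend adjusted p = 0.0860). In both, the groups did not overlap and commercial feed library 1 was the lowest.

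The stalk subunits showed a smaller range. The G 1-like LOC117964675, part of a peripheral stalk and the most abundant V1 locus, had 56.6, 55.6 and 44.0 FPKM with Limnodrilus, against 17, 32.9 and 24.7 FPKM with commercial feed. Its groups did not overlap, and it was not called (log2 fold change 1.08 ± 0.36, limma-trend adjusted p = 0.0767). The F locus LOC117415055, which belongs to the central shaft, had 44.9, 34.9 and 35.7 FPKM with Limnodrilus against 11.8, 30.2 and 15.3 FPKM with commercial feed (1.07 ± 0.41, limma-trend adjusted p = 0.108). Subunits C and E of the peripheral stalks were nearly level on the sums, at 26.3 ± 3.86 and 26.8 ± 11.3 FPKM for C and 24.9 ± 2.65 and 24.9 ± 14.0 FPKM for E, in each case Limnodrilus and then commercial feed. Subunit D of the shaft averaged 36.9 ± 6.37 and 30.1 ± 9.09 FPKM in the same order. The C locus LOC117399229 was the only tested V1 feature with a log2 fold change below 0, at 12.1, 15.1 and 14.6 FPKM with Limnodrilus and 11, 26.5 and 15.1 FPKM with commercial feed (-0.23 ± 0.39).

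The accessory subunit S1, which assists assembly and sorting of the pump, was called at 1 of its 2 tested loci. LOC117401680 (NC_081243.1, 2405350 to 2434322) had 31.2, 34.9 and 25.1 FPKM with Limnodrilus, against 11.1, 11 and 11.1 FPKM with commercial feed. The feed values were almost identical, all were below the Limnodrilus values, and the log2 fold change was 1.37 ± 0.30 (limma-trend adjusted p = 0.0236). LOC117404328, the more abundant locus, had 61.7, 37.5 and 36.1 FPKM with Limnodrilus and 10.6, 38.1 and 23.3 FPKM with commercial feed. Its groups overlapped through commercial feed library 2, and it was not called (1.01 ± 0.50, limma-trend adjusted p = 0.20). The other 4 S1 loci did not reach the filter.

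**Figure D4:**
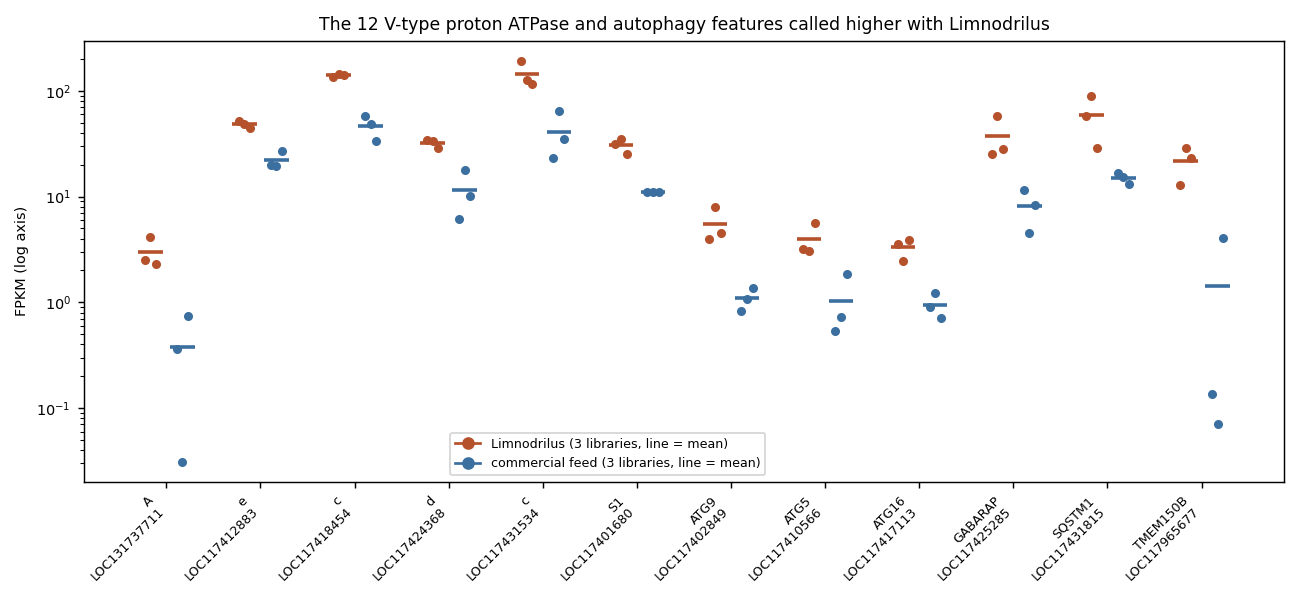
FPKM (log axis) in each library of the 12 features called higher with Limnodrilus, 6 of the proton pump and 6 of autophagy; points are libraries and lines are means of 3. In each of the 12 every Limnodrilus point lies above every commercial feed point, as in 28.4% of all tested features. The 12 were chosen by their calls on these same values, so this separation is no further evidence.

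Among 23 listed assembly factors and partner proteins of the pump, 18 were tested, 2 were higher (11.1%, against 14.0% of all tested features), 1 was lower and 15 were not called, with a median log2 fold change of 0.47. Both higher features encode vma21, a chaperone that helps to build Vo in the endoplasmic reticulum. LOC117411938 had 16.1, 18.8 and 13.2 FPKM with Limnodrilus, against 3.26, 4.71 and 3.66 FPKM with commercial feed, a separation several times the spread within either diet (log2 fold change 1.80 ± 0.31, limma-trend adjusted p = 0.0124). The vma21-like LOC131701670 had 4.02, 5.75 and 3.55 FPKM with Limnodrilus, against 0.308, 0 and 0.304 FPKM with commercial feed (2.17 ± 0.31, limma-trend adjusted p = 0.00930). The lower feature, oxidation resistance protein 1-like LOC117394346, one of the TLDc-domain proteins, had 2.21, 1.97 and 3.06 FPKM with Limnodrilus and 8.11, 8.66 and 9.85 FPKM with commercial feed (-1.54 ± 0.29, limma-trend adjusted p = 0.0158). With any 1 Limnodrilus library left out, LOC131701670 was the 1 feature of the list still called. This locus averaged 4.44 FPKM with Limnodrilus and 0.204 FPKM with commercial feed, so it passed the filter of 1 FPKM through the Limnodrilus libraries. At its length of 628 bases, each feed value stands for fewer than 3 reads. The most abundant partner, the renin receptor-like LOC117405167, is an accessory protein of the pump. It had 41.4, 44.3 and 42.2 FPKM with Limnodrilus and 8.82, 28.6 and 19.7 FPKM with commercial feed, without overlap and without passing the test (1.26 ± 0.45, limma-trend adjusted p = 0.0896).

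Of the 69 autophagy features 59 were tested. With Limnodrilus 6 (10.2%) were higher, below the 14.0% of all tested features, and 0 were lower, against 3.64%, with 15 and 1 at an unadjusted p under 0.05 and 4 and 0 by limma-voom. The median log2 fold change was 0.37, with 38 above 0 and 21 below. Of the 6 called features 2 were in conjugation and 1 each in membrane supply, the ATG8 family, the cargo receptors and the remaining autophagy-named products. The initiating kinases and the beclin complex had none, with 10 tested features each. Summed over all 69 features, levels were 803, 1081 and 744 FPKM in Limnodrilus libraries 1 to 3 and 530.0, 617 and 565 FPKM in commercial feed libraries 1 to 3, without overlap on the deposited scale. Divided by the median-of-ratios size factors, 1.258 for Limnodrilus library 3 and 0.7575 for commercial feed library 1, these sums overlap between the diets.

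The ULK kinases, with their partners ATG13 and ATG101, start autophagosome formation. Of these 16 features 10 were tested and 0 were called in either direction. Of all tested features 14.0% were called higher and 3.64% lower, so 0 calls among 10 features says little. At an unadjusted p under 0.05, 2 lay higher and 0 lower, and limma-voom called 0. The median log2 fold change was 0.10. The ULK2-like LOC117430641 had 4.72, 15.8 and 4.49 FPKM with Limnodrilus, against 1.53, 1.52 and 4.64 FPKM with commercial feed (1.29 ± 0.54, limma-trend adjusted p = 0.137). The most abundant, the ULK2-like LOC117429598, had 7.21, 20 and 6.13 FPKM with Limnodrilus and 3.91, 8.80 and 14.4 FPKM with commercial feed (0.24 ± 0.57, limma-trend adjusted p = 0.793), and the sign of its change turned under other scalings and without single libraries. Limnodrilus library 2 stood high in both ULK2-like loci. A pair of ULK1-like loci, LOC117426103 and LOC131739397, had means of 3.14 and 3.35 FPKM with Limnodrilus and of 5.56 and 5.58 FPKM with commercial feed, and neither was called (limma-trend adjusted p = 0.202 and 0.315).

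A group of ULK1-like loci on NC_081240.1 and NC_081241.1 varied by library more than by diet. LOC117432765 had 1.76, 0 and 1.87 FPKM with Limnodrilus and 1.82, 0.0944 and 4.16 FPKM with commercial feed. LOC131722952 had 2.53, 0.106 and 3.31 FPKM with Limnodrilus and 0.850, 0.756 and 4.90 FPKM with commercial feed. LOC117432773 had 3.24, 0.0333 and 3.62 FPKM with Limnodrilus and 0.127, 0.297 and 1.81 FPKM with commercial feed. Limnodrilus library 2, the deepest library, was near 0 in all 3 loci while Limnodrilus libraries 1 and 3 were not. The ATG13-like LOC117432011 was more even, with 8.81, 12 and 9.06 FPKM with Limnodrilus and 3.40, 5.33 and 6.49 FPKM with commercial feed. Its groups did not overlap, and it was not called (0.87 ± 0.33, limma-trend adjusted p = 0.107).

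The beclin-1 complex makes the phosphoinositide that marks the growing membrane, and its 10 features were all tested. None was called in either direction, with 1 higher and 0 lower at an unadjusted p under 0.05 and 0 by limma-voom. Of all tested features 14.0% were called higher and 3.64% lower, so 0 calls among 10 features says little. Beclin-1-like LOC117435012 had 17, 12.3 and 15.8 FPKM with Limnodrilus and 10.6, 11.4 and 12 FPKM with commercial feed, which did not overlap but differed little (log2 fold change 0.37 ± 0.30, limma-trend adjusted p = 0.419). The other beclin-1 locus, LOC117433215, averaged 8.25 ± 1.42 FPKM with Limnodrilus and 8.32 ± 2.54 FPKM with commercial feed. Both loci of ATG14, the subunit that directs the complex to autophagy, had log2 fold changes below 0. LOC117421974 had 4.64, 3.36 and 5.66 FPKM with Limnodrilus and 3.81, 9.34 and 11.9 FPKM with commercial feed, with overlapping groups (-0.66 ± 0.43, limma-trend adjusted p = 0.321). AMBRA1, a regulator of beclin-1, had 1 locus on each side: LOC117435053 averaged 3.49 ± 1.27 and 1.84 ± 0.620 FPKM, and LOC117432245 averaged 2.17 ± 0.431 and 3.45 ± 0.423 FPKM, with Limnodrilus first.

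The enhancers of the complex varied most among the commercial feed libraries. LOC117405355, named as a protein associated with UVRAG as autophagy enhancer, had 6.01, 6.05 and 5.20 FPKM with Limnodrilus and 0.646, 3.46 and 20.6 FPKM with commercial feed. The feed libraries spanned the Limnodrilus values on both sides, and the locus was not called (log2 fold change 0.32 ± 0.83, limma-trend adjusted p = 0.816). With commercial feed libraries 1 and 2 left out together, so that library 3 stood alone and was assumed to vary like the others, the sign turned and the locus was called lower (log2 fold change -1.68, limma-trend adjusted p = 0.0344). Its second locus, LOC117406475, had 3.08, 4.61 and 3.96 FPKM with Limnodrilus and 0.351, 0.984 and 2.70 FPKM with commercial feed (1.17 ± 0.42, limma-trend adjusted p = 0.0906). Rubicon, a brake on the same complex, had 2 loci that summed to 17 ± 2.77 FPKM with Limnodrilus and 13.3 ± 11.3 FPKM with commercial feed.

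Among the membrane suppliers 1 of 13 tested features was called higher (7.69%, against 14.0% of all tested features). ATG9 is the membrane protein whose vesicles seed the autophagosome. ATG9A-like LOC117402849 (NC_081198.1, 35139754 to 35155335) had 3.97, 7.90 and 4.51 FPKM with Limnodrilus, against 0.836, 1.07 and 1.37 FPKM with commercial feed. The groups were well apart (log2 fold change 1.59 ± 0.33, limma-trend adjusted p = 0.0207). All 4 ATG9 loci had log2 fold changes above 0, and together they reached 12.7, 22.3 and 14.0 FPKM with Limnodrilus, against 6.66, 7.55 and 8.30 FPKM with commercial feed. For ATG2, the tube that passes lipid to the membrane, the 3 loci summed to 13.1 ± 1.88 FPKM with Limnodrilus and 17.3 ± 5.07 FPKM with commercial feed. WIPI proteins read the phosphoinositide mark, and 0 of 6 loci were called, against 14.0% of all tested features called higher and 3.64% lower. The most abundant by mean over the 6 libraries, WIPI2-like LOC117418150, had 27.7, 23.8 and 26.4 FPKM with Limnodrilus and 26.4, 38.2 and 38.9 FPKM with commercial feed (-0.38 ± 0.32, limma-trend adjusted p = 0.441). LOC117424445 had 34.1, 63.2 and 17.9 FPKM with Limnodrilus against 18.6, 17.5 and 18.5 FPKM with commercial feed, a difference carried by Limnodrilus libraries 1 and 2.

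Conjugation of ATG8 proteins to lipid needs the ATG12, ATG5 and ATG16 complex, and 2 of 5 tested features were called higher. That is 40% of a small group, against 14.0% of all tested features, and limma-voom called 0 of the 5. ATG3, ATG7, ATG10 and ATG12 of the same step are in a list given below, which gave 0 calls among 17 tested features. ATG16-like LOC117417113 (NC_081200.1, 17701420 to 17749464) had 3.56, 2.47 and 3.86 FPKM with Limnodrilus, against 0.911, 1.22 and 0.710 FPKM with commercial feed, without overlap (log2 fold change 1.14 ± 0.30, limma-trend adjusted p = 0.0401). ATG5 locus LOC117410566 (NC_081194.1, 62618912 to 62682609) had 3.22, 3.04 and 5.59 FPKM with Limnodrilus, against 0.530, 0.720 and 1.85 FPKM with commercial feed (1.30 ± 0.37, limma-trend adjusted p = 0.0489). Its groups did not overlap either, and its feed mean of 1.03 FPKM was 0.625 FPKM without commercial feed library 3. The paralogous loci were more even: ATG5-like LOC117403419 averaged 3.44 ± 0.385 and 2.56 ± 0.499 FPKM, and ATG16-1-like LOC117423455 averaged 5.75 ± 0.607 and 3.82 ± 1.22 FPKM, with Limnodrilus first, and neither was called. The protease atg4b, which trims ATG8 proteins before conjugation, had 12.4, 9.96 and 9.44 FPKM with Limnodrilus and 6.25, 12.5 and 17 FPKM with commercial feed, spanning the same range (-0.07 ± 0.40, limma-trend adjusted p = 0.925).

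The ATG8 family was the most abundant step of the pathway, at 292, 438 and 323 FPKM summed in the Limnodrilus libraries and 266, 313 and 155 FPKM in the commercial feed libraries. Its loci had changes of both signs. Of 13 tested features 1 was called higher (7.69%, against 14.0% of all tested features). Log2 fold changes were above 0 in 8 and below 0 in 5, from -0.85 to 2.26. GABARAP-like LOC117425285 (NC_081208.1, 17158703 to 17163193) had 25.2, 57.5 and 28.3 FPKM with Limnodrilus, against 11.4, 4.53 and 8.40 FPKM with commercial feed. The groups did not overlap and Limnodrilus library 2 was the highest (2.04 ± 0.46, limma-trend adjusted p = 0.0248). The adjacent locus, GABARAP-like 1 LOC117425284, ends 2068 bases before it on the same sequence. That neighbour had 6.28, 10.9 and 9.48 FPKM with Limnodrilus and 16.4, 19.7 and 13.1 FPKM with commercial feed, so that all 3 Limnodrilus libraries lay below (-0.83 ± 0.34, limma-trend adjusted p = 0.130). The neighbour's difference did not pass the test, and the difference between the adjacent loci was itself not tested.

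The most abundant GABARAP locus, LOC117404452, had 57.7, 74.1 and 65.9 FPKM with Limnodrilus and 50.8, 59.3 and 25.1 FPKM with commercial feed (0.62 ± 0.41, limma-trend adjusted p = 0.323). Its groups overlapped through commercial feed library 2. LOC131721164 had 45.02, 67.16 and 45.58 FPKM with Limnodrilus and 36.01, 32.79 and 15.85 FPKM with commercial feed. LOC117424803 had 19.97, 20.97 and 22.96 FPKM with Limnodrilus and 14.37, 18.11 and 10.18 FPKM with commercial feed. In both, all Limnodrilus values lay above the feed values (0.93 ± 0.41 and 0.58 ± 0.33). Neither was called (limma-trend adjusted p = 0.157 and 0.255). LOC117425659 had 27.1, 31.5 and 26.0 FPKM with Limnodrilus and 33.6, 36.9 and 32.5 FPKM with commercial feed, all Limnodrilus values below but by little (-0.28 ± 0.30). LOC117424537 and LOC117424538 overlap by 1536 bases in the table, so their reads may not be separable; they averaged 12.6 ± 4.46 and 2.37 ± 1.67 FPKM with Limnodrilus, against 26.4 ± 18.6 and 3.72 ± 2.47 FPKM with commercial feed.

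LC3 is the ATG8 branch most used to mark autophagosomes. LC3 locus LOC117432654 (NC_081217.1, 1897982 to 1906178) had 29.9, 72.9 and 43.9 FPKM with Limnodrilus, against 15.4, 15.8 and 2.37 FPKM with commercial feed. It had the widest log2 fold change of the family at 2.26 ± 0.68 and missed the threshold (limma-trend adjusted p = 0.0562). Without commercial feed library 3 it was called, at a log2 fold change of 1.497 (limma-trend adjusted p = 0.0410). A second LC3 locus, LOC117421517, had 27.8, 41.4 and 27.2 FPKM with Limnodrilus, against 20.9, 18.9 and 2.12 FPKM with commercial feed (1.55 ± 0.73, limma-trend adjusted p = 0.179). Both loci were lowest in commercial feed library 3. LOC117424378 had 29.3, 32.9 and 33.2 FPKM with Limnodrilus and 36.2, 51.1 and 24.3 FPKM with commercial feed, and was also lowest in commercial feed library 3. The locus annotated map1lc3b, which the product rule leaves out, was level at 38.6 ± 1.64 FPKM with Limnodrilus and 39.4 ± 18.6 FPKM with commercial feed.

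Sequestosome-1, the receptor that binds ubiquitin-tagged cargo and LC3, had 2 loci. In both, all 3 Limnodrilus libraries lay above all 3 commercial feed libraries, as in 28.4% of all tested features. LOC117431815 (NC_081210.1, 22596730 to 22602845) had 58.2, 89.1 and 28.6 FPKM with Limnodrilus, against 16.7, 15.4 and 13.2 FPKM with commercial feed. It was called higher (log2 fold change 1.76 ± 0.45, limma-trend adjusted p = 0.0363). LOC131699635 had 154, 186 and 71.7 FPKM with Limnodrilus, against 68.3, 32.9 and 32.8 FPKM with commercial feed, which made it the most abundant autophagy locus, and it missed the threshold (1.58 ± 0.49, limma-trend adjusted p = 0.0639). In both loci Limnodrilus library 2 was the highest and Limnodrilus library 3 the lowest of its diet, and the sum was 196 ± 88.3 FPKM with Limnodrilus and 59.7 ± 21.9 FPKM with commercial feed.

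Among the other autophagy-named products 1 of 6 tested was called higher (16.7%, against 14.0% of all tested features), and it had the largest log2 fold change of the 93 tested features. TMEM150B-like LOC117965677 (NC_081241.1, 3598813 to 3609407), annotated as a modulator of macroautophagy, had 12.9, 28.6 and 23.3 FPKM with Limnodrilus, against 0.136, 0.0707 and 4.03 FPKM with commercial feed. The first feed values stood for 2 reads and 1 read. The groups did not overlap, and commercial feed library 3 was far above the other feed libraries (3.56 ± 0.64, limma-trend adjusted p = 0.0142). Its feed mean of 1.41 FPKM was 0.104 FPKM without that library. The second TMEM150B locus, LOC117433125, had 6.51, 8.83 and 14.8 FPKM with Limnodrilus, against 0.0866, 0.921 and 6.37 FPKM with commercial feed, again without overlap and with commercial feed library 3 the highest of its diet, and it was not called (2.08 ± 0.69, limma-trend adjusted p = 0.0739).

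The gene dram1, a damage-induced membrane protein of the lysosome, had 16, 6.79 and 21.5 FPKM with Limnodrilus and 7.00, 15 and 30.9 FPKM with commercial feed, with overlapping groups (-0.15 ± 0.60, limma-trend adjusted p = 0.883). The ELAPOR locus LOC117430226, an endosome and lysosome-associated regulator, had 3.49, 5.24 and 5.20 FPKM with Limnodrilus and 7.43, 6.20 and 12 FPKM with commercial feed. All its Limnodrilus libraries were below the feed libraries, without a call (-0.73 ± 0.35, limma-trend adjusted p = 0.183).

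Log2 fold changes of paralogous loci did not always share a sign. Of 29 subunits or proteins with at least 2 tested loci, 15 had all loci above 0 on the log2 scale, 12 had loci on both sides and 2 had all loci below 0. For the proton pump these counts were 7, 4 and 0 of 11, and for autophagy 8, 8 and 2 of 18. The protein kinds with loci on both sides included subunits C, a, d and e of the pump and ULK, WIPI, GABARAP and LC3 in autophagy. Over all tested features 14047 lay above 0 and 9597 below. Some opposite signs lay within their standard error of 0, such as C LOC117399229 (-0.23 ± 0.39), e 2 LOC117418618 (-0.07 ± 0.30) and LC3 LOC117424378 (-0.16 ± 0.37). The sign turned under at least 1 alternative for 25 of the 93 features, and differences between paralogous loci were not tested.

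Of the 29 features not tested, 2 were at 0 in all 6 libraries, the a 4-like LOC117415832 and the G 3-like LOC131739971, and another 10 were at 0 in the 3 commercial feed libraries. None of these 10 exceeded 10 recovered reads in a Limnodrilus library, which, beside the lower depth of the feed libraries, does not allow a difference to be read. The largest contrasts among the untested were ULK3-like LOC117428104, with 21, 79 and 51 reads in the Limnodrilus libraries and 1, 1 and 0 reads in the commercial feed libraries, and the A locus LOC117972994, with 43, 119 and 46 reads with Limnodrilus and 2, 0 and 6 reads with commercial feed.

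Of 67 listed features of autophagy genes outside the product rule 59 were tested, 9 were higher (15.3%, near the 14.0% of all tested features), 1 was lower and 49 were not called, with a median log2 fold change of 0.21. VAMP8-like LOC131729691, a SNARE protein for fusion of autophagosome and lysosome, had 15.2, 17.6 and 14.1 FPKM with Limnodrilus, against 1.53, 1.21 and 0.902 FPKM with commercial feed (2.91 ± 0.29, limma-trend adjusted p = 0.00758). TMEM41B-like LOC117434451, a lipid scramblase of the endoplasmic reticulum, had 14.8, 25.3 and 17.2 FPKM with Limnodrilus, against 1.63, 2.09 and 4.06 FPKM with commercial feed (2.51 ± 0.38, limma-trend adjusted p = 0.00992). VMP1-like LOC117429490, a scramblase that works with TMEM41B, had 113, 167 and 60.9 FPKM with Limnodrilus, against 9.58, 6.31 and 18 FPKM with commercial feed (3.22 ± 0.51, limma-trend adjusted p = 0.0110). In these 3 genes every Limnodrilus library was more than 3 times the highest feed library. A second locus of each was also called higher: LOC131706772 for VAMP8 (log2 fold change 1.39), LOC117432443 for TMEM41B (1.48) and LOC117963263 for VMP1 (2.14).

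The list gave 3, 2 and 3 calls without Limnodrilus libraries 1, 2 and 3 and 10, 5 and 14 without commercial feed libraries 1, 2 and 3. The feature called lower in it was RB1CC1-like LOC117394383, the scaffold on which ULK kinases assemble, with 4.32, 5.0 and 6.60 FPKM with Limnodrilus and 21.9, 15.3 and 17.2 FPKM with commercial feed (-1.61 ± 0.32, limma-trend adjusted p = 0.0175). The most abundant, LAMP2-like LOC117412412, a lysosomal membrane protein, had 176, 133 and 86.1 FPKM with Limnodrilus and 33, 158 and 141 FPKM with commercial feed, with overlapping groups (0.47 ± 0.64). Another 21 pump and autophagy features whose products are named otherwise, a list added after values had been seen, gave 0 calls in either direction among 17 tested. Of all tested features 14.0% were called higher and 3.64% lower. In this list 1 lay higher and 0 lower at an unadjusted p under 0.05, limma-voom called 0, and the median log2 fold change was 0.11. They include ATG3, ATG4, ATG7, ATG10 and ATG12, the enzymes and ubiquitin-like protein of the conjugation step.

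The lysosome is also where amino acid supply is reported to the growth kinase TORC1 through the Ragulator and Rag proteins, which dock on the proton pump. Of 59 listed features 48 were tested, 3 (6.25%) were higher, against 14.0% of all tested features, 3 (6.25%) were lower, against 3.64%, and 42 were not called, with a median log2 fold change of 0.15. LAMTOR1 LOC117406045, the anchor of Ragulator, had 6.87, 9.87 and 8.14 FPKM with Limnodrilus, against 1.9, 0.0856 and 1.05 FPKM with commercial feed (2.31 ± 0.41, limma-trend adjusted p = 0.0141). RRAGC LOC117413473, a Rag GTPase, had 5.69, 6.54 and 6.27 FPKM with Limnodrilus, against 2.36, 1.42 and 1.77 FPKM with commercial feed (1.34 ± 0.29, limma-trend adjusted p = 0.0215). Sestrin-1-like LOC117411304, a leucine-binding brake on TORC1 in mammals, had 5.31, 3.75 and 10.1 FPKM with Limnodrilus and 18.8, 45.3 and 28.5 FPKM with commercial feed (-2.11 ± 0.46, limma-trend adjusted p = 0.0227). The other locus, sesn1, was the most abundant feature of the list and had 13.6, 47.9 and 28.3 FPKM with Limnodrilus and 12, 4.19 and 75.8 FPKM with commercial feed, a spread within each diet larger than the difference between them. The other calls were SLC38A9 LOC117409601, an arginine sensor of the lysosome membrane, which was higher (log2 fold change 1.41), and the CASTOR2 loci LOC117429475 and LOC117430784, named as cytosolic arginine sensors, which were lower (-1.59 and -1.46). The list gave 0 calls without any 1 of the Limnodrilus libraries, with 12, 10 and 11 features at an unadjusted p under 0.05, and 3, 1 and 9 without commercial feed libraries 1, 2 and 3.

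Among 96 listed lysosomal hydrolases and membrane proteins 69 were tested, 14 were higher (20.3%, against 14.0% of all tested features), 0 were lower and 55 were not called, with a median log2 fold change of 0.96; at an unadjusted p under 0.05, 21 lay higher and 1 lower, and limma-voom called 14 and 0. Lysosome membrane protein 2-like LOC131724824, a receptor that sorts a lysosomal hydrolase, had 24.5, 18.6 and 9.65 FPKM with Limnodrilus, against 0.381, 0.395 and 0.843 FPKM with commercial feed (3.52 ± 0.39, limma-trend adjusted p = 0.00758). Tripeptidyl-peptidase 1-like LOC117974029, a lysosomal protease, had 8.65, 14.2 and 7.68 FPKM with Limnodrilus, against 1.89, 1.18 and 0.995 FPKM with commercial feed (2.22 ± 0.34, limma-trend adjusted p = 0.0104). The most abundant, procathepsin L-like LOC117413506, varied widely within both diets, with 2831, 1278 and 127 FPKM with Limnodrilus and 87.1, 2123 and 153 FPKM with commercial feed. It was not called (1.34 ± 1.44, limma-trend adjusted p = 0.548), and with that spread a difference between the diets could not be resolved. The list gave 4, 4 and 6 calls without Limnodrilus libraries 1, 2 and 3, and 4 to 17 calls over all single-library omissions. The 4 features that encode LAMP1 or LAMP2 are also in the list of autophagy genes outside the rule.

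The order of the libraries within the commercial feed group was uneven. Commercial feed library 1 was the lowest of the 3 feed libraries in 57 of the 93 tested features (61.3%), against 48.5% of all tested features, and in 26 of the 34 pump features (76.5%). Commercial feed library 3 was the highest in 43 of the 93 (46.2%), against 49.2% of all tested features. On the mean of log2(FPKM + 1), the tested pump features lay at 4.10, 3.99 and 3.91 in Limnodrilus libraries 1 to 3 and at 2.87, 3.63 and 3.51 in commercial feed libraries 1 to 3. The tested autophagy features lay at 3.08, 3.24 and 3.17 with Limnodrilus and at 2.47, 2.70 and 2.92 with commercial feed. All 23644 tested features lay at 2.82, 2.74 and 2.90 with Limnodrilus and at 2.35, 2.51 and 2.77 with commercial feed.

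Markers of cell types differed between the libraries as well. The 13 brush border features summed to 1688 to 8733 FPKM with Limnodrilus and 53.9 to 1416 FPKM with commercial feed, and 4 of 12 tested (33.3%, against 14.0% of all tested features) were called higher: villin-1-like LOC117399788, intestinal fatty acid-binding protein LOC117409347, retinol-binding protein 2-like LOC117416438 and aminopeptidase N-like LOC117429155. The 19 general epithelium features (cadherin-1, EpCAM, keratins) summed to 356 to 467 FPKM with Limnodrilus and 108 to 227 FPKM with commercial feed, with 4 of 16 tested (25%) called higher. The 17 smooth muscle features summed to 2264 to 3225 FPKM with Limnodrilus and 634 to 8089 FPKM with commercial feed; 0 of 13 tested were called by limma-trend or by limma-voom, with 1 at an unadjusted p under 0.05, and on their mean log2 level commercial feed libraries 1 to 3 were far apart, at 7.70, 6.74 and 4.40. Of the 43 goblet cell features 18 were tested, and the list summed to 1064 to 1861 FPKM with Limnodrilus and 418 to 1244 FPKM with commercial feed. Of those tested 4 (22.2%, against 14.0% of all tested features) were called higher and 0 lower: the AGR2 locus LOC117394232 and the mucin-2-like loci LOC117430326, LOC131731604 and LOC131737439. Over the 18 tested, 11 log2 fold changes were above 0 and 7 below. The most abundant goblet feature, the AGR2 locus LOC117394280, was not called and its groups overlapped. It had 472, 496 and 1078 FPKM with Limnodrilus, against 161, 417 and 612 FPKM with commercial feed. In bulk tissue, more cells of a type and more RNA per cell cannot be told apart, and the part of tissue makeup in the pump and autophagy values was not tested.

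Markers of cells known to carry much proton pump were scarce or uneven. The 4 osteoclast marker features summed to 1.60 to 4.37 FPKM with Limnodrilus and 0 to 2.85 FPKM with commercial feed, and none reached the filter. The 10 features of ion-transporting cells (forkhead box I1, anion exchangers, pendrin) summed to 305 to 389.7 FPKM with Limnodrilus and 21.3 to 377 FPKM with commercial feed, with 3 tested and 0 called by limma-trend or limma-voom, and 1 higher and 1 lower at an unadjusted p under 0.05. Nearly all of the sum in the Limnodrilus libraries was 1 locus, chloride anion exchanger-like LOC117420089, at 302, 334 and 387 FPKM with Limnodrilus, against 7.63, 34.1 and 373 FPKM with commercial feed. Whether this locus marks cells rich in proton pump in this gut was not tested, so the sum is no measure of such cells. The other 9 features together had 2.32 to 3.45 FPKM with Limnodrilus and 4.14 to 13.7 FPKM with commercial feed. The 108 myeloid features summed to 140.0 to 286 FPKM with Limnodrilus and 97.9 to 414 FPKM with commercial feed. Of these, 2 of 14 tested (14.3%, near the 14.0% of all tested features) were called higher. The 10 neuron features summed to 4.29 to 9.98 FPKM with Limnodrilus and 6.62 to 18.2 FPKM with commercial feed, and the 7 enteroendocrine features to 26.8 to 45.5 FPKM with Limnodrilus and 5.02 to 20 FPKM with commercial feed.

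**Figure D5:**
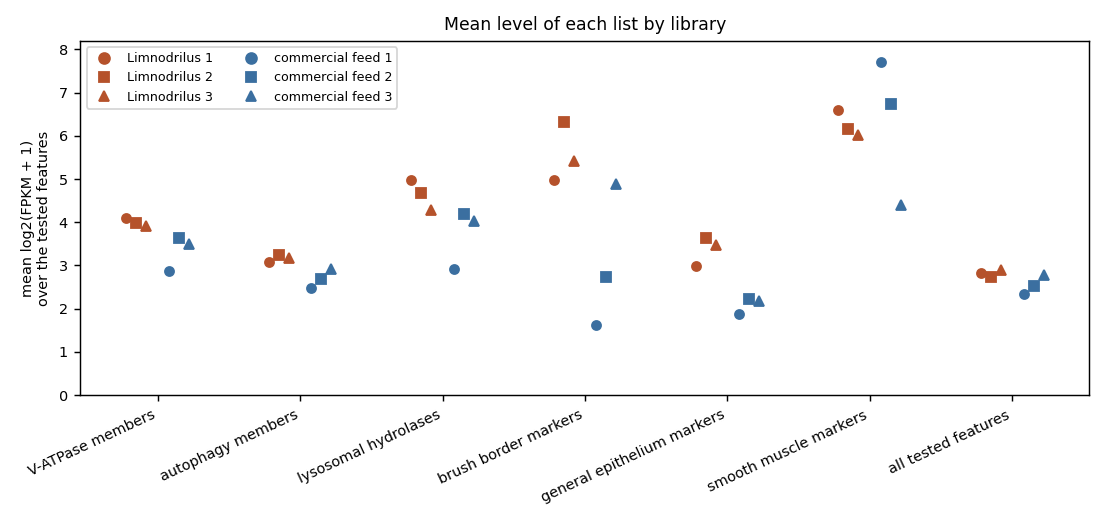
Mean log2(FPKM + 1) over the tested features of each list, for each of the 6 libraries. Pump features lie at 3.91 to 4.10 in the Limnodrilus libraries and 2.87 to 3.63 in the commercial feed libraries. Commercial feed library 1 is lowest for every list shown and for all tested features, except for smooth muscle markers, where it is highest.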

How the data were processed

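Poly(A) RNA from gut was sequenced in 6 libraries, 3 per diet, after an RNA integrity number above 7.0, per the labels' protocols. The authors deposited 1 table of FPKM with a length for each feature, and no column of values was left unused. Use of cutadapt 1.9 and the mouse build mm10 are named, per the submitters' processing notes, but the table's sequence names are not of that build. Coordinates are printed as deposited. The sources used here do not give the assembly, aligner, counting, strand setting or treatment of shared reads. Multiplied by length, the values were whole numbers of reads, within 0.1, for 100% of values up to 20 reads and 92.8% to 95.9% of all values, which gave the read totals. At 1 kb, 3 reads are 0.153 to 0.216 FPKM with Limnodrilus and 0.286 to 0.302 FPKM with commercial feed, covering counting error only.

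Computed here were log2(FPKM + 1) values for features averaging 1 FPKM or more, and limma-trend tests (limma 3.58.1, R 4.3.3, 2-sided, Benjamini-Hochberg over 23644 features, threshold 0.05). The fit was also tested on simulated data with 200 changed features. That simulation drew noise separately for each feature, so it cannot show how the fit handles shifts of a whole library. Log2 fold changes, Limnodrilus minus feed, understate the change of low features. The members and lists were chosen with earlier results of these data known. A rule named 24 members: in each role up to 4 called features of smallest p per direction, the most abundant and the largest log2 fold change; in each other list up to 3 called features and the most abundant. Other loci are named after their values were seen, to complete the account of a subunit or step, and so are RB1CC1, SLC38A9, CASTOR2, the second loci of VAMP8, TMEM41B and VMP1 and the brush border, goblet and anion exchanger loci. Replicate numbers do not pair the libraries. The alternatives tried are given with their effect in the closing section; limma-voom on recovered reads and reads thinned to 9.948 M were chosen after seeing the data.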

Additional observations from a re-analysis of the deposited data

How the results depend on the processing

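With all 6 libraries 12 pump and autophagy features were called. The count was 9 to 14 with a pseudocount of 0.1 (11), no filter (10), a minimum mean of 5 FPKM (9), TPM (11), no ribosomal RNA or mitochondrial features (14), limma without trend (11), robust limma-trend (12), limma-voom (9) and thinned reads (12). Median-of-ratios and quantile scaling brought the median of all tested features to 0.01 and 0.00, against 0.24, and called 3 and 6 features, 1 and 3 of the pump and 2 and 3 of autophagy, all of them among the 12; the median of the 93 was then 0.26 and 0.27. Over all features these scalings called 3727 and 3897, against 4182. Called higher were 3.23% and 6.45% of the 93, below the 9.45% and 10.1% of all tested features. Named by both scalings were ATG9A-like LOC117402849, TMEM150B-like LOC117965677 and the A locus LOC131737711. Of these, the A locus averaged 0.378 FPKM with commercial feed and passed the filter through the Limnodrilus libraries. A minimum mean of 5 FPKM gave 3 autophagy calls, 2625 calls over all features and 3 in the TORC1 list.

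Leaving out single libraries gave 0 to 18 calls, with 0 to 8 for the pump, 0 to 10 for autophagy, 638 to 6295 over all features, 1 to 4 for assembly partners, 2 to 14 for autophagy genes outside the product rule, 4 to 17 for lysosomal features and 0 to 9 for the TORC1 list; the median of the 93 ran between 0.38 and 0.57. Where no member was called, 19 and 21 were at an unadjusted p under 0.05. With commercial feed libraries 1 and 2 left out together, commercial feed library 3 stood alone for its diet, and the median of the 93 was 0.25. All 12 kept their direction under every alternative in which they were tested; in single-library omissions LOC117965677 stayed called in 4 of 6 cases and each other feature in 1 or 2.

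Replicate numbers are shared between diets, but same-numbered libraries did not deviate together (correlations 0.187, -0.0692 and 0.0747). The replicate block gave 3 calls (pump 0, autophagy 3), 2 of them among the 12 and the other TMEM150B locus LOC117433125, and 2607 over all features, 5 in autophagy genes outside the rule and 3 in the TORC1 list; for the pump 13 features were at an unadjusted p under 0.05. With the replicate block 3.23% of the 93 were called higher, below the 8.91% of all tested features. The sign turned under at least 1 alternative for 25 of the 93 features, 0 of them called, and for 3 of the 24 named by rule. ULK2-like LOC117429598 was at -0.0184 with median-of-ratios, -0.0119 with quantile scaling and -0.5248 with commercial feed libraries 1 and 2 left out, and ran from -0.2425 to 0.6277 over single-library omissions. The protease atg4b was at 0.0473 with TPM and ran from -0.4352 to 0.2201 over single-library omissions. The gene dram1 ran from -0.6502 to 0.3471 over them. The cause of these changes was not tested. The planned edgeR test was not run, because the table holds FPKM and not counts. At 9.95 to 10.5 M reads, features under about 0.3 FPKM at 1 kb in the feed libraries cannot be told from 0.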
